A study of Mus musculus with 3 samples.

Results

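A set of 8 genes encoding erythroid transcription factors and co-regulators was followed in mouse fetal liver: Klf1, Gata1, Gata2, Nfe2, Tal1, Zfpm1, Lmo2 and Cited2. They and the gene lists below were chosen by name, but with earlier results of these data known. Every probe that the platform annotation assigns to a listed symbol was taken. Each of the 8 genes had 1 probe with a value in all 3 arrays, among 13697 genes represented on the platform. Messenger RNA of fetal liver from embryos of stage E14.5, counted in days of gestation, was hybridised to CodeLink oligonucleotide arrays read in 1 colour, with 1 array for each of 3 genotypes. The groups were wild-type embryos, DNase II-deficient embryos, and DNase II-/- IFN-IR-/- embryos, called double-deficient below, in which the type I interferon receptor (IFN-IR) is also missing. Macrophages use the lysosomal enzyme DNase II to break down DNA of the cells they engulf, such as the nuclei that erythroblasts expel. Both mutant groups share the loss of DNase II, and no treatment is labelled. The labels state no strain, no allele design and no number of embryos per array. Since each genotype has 1 array, no difference has a replicate check or a test, and the number of arrays limits the precision.

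As background, red cell formation in the fetal liver is run by a small set of nuclear proteins that bind one another and the regulatory DNA of globin, heme and membrane genes. GATA1, a zinc finger protein that binds GATA motifs, takes over from its relative GATA2 as progenitors mature, and works with the co-regulator FOG1, the product of Zfpm1. TAL1, a basic helix-loop-helix protein, and LMO2, a bridging LIM protein, join GATA1 in one complex. KLF1 binds CACCC boxes, among them that of the adult beta globin promoter, and NF-E2, whose large subunit Nfe2 encodes, binds the beta globin locus control region and also governs platelet release by megakaryocytes. CITED2 differs in kind: it has no DNA-binding domain of its own, binds CBP and p300, restrains HIF-1 and is itself induced by low oxygen. Blood formation in the mouse fetal liver also needs it.

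RefSeq promoter windows of build GRCm38.p6, from 250 bases before to 50 bases after an annotated start, matched 6 of the 8 genes in 8 windows. Nfe2 and Lmo2 had no entry. The windows of Klf1 and Gata1 are shown because both genes were at least 2-fold lower without DNase II, and that of Cited2 because it differed in the other direction. In the first 2 sequences capitals mark GATA motifs (AGATAA or TGATAA) and CACCC boxes (CACCC), read on both strands. In the last, capitals mark the core of the hypoxia response element (ACGTG or GCGTG, both strands).
Klf1, chr8:84901732-84902031, plus strand: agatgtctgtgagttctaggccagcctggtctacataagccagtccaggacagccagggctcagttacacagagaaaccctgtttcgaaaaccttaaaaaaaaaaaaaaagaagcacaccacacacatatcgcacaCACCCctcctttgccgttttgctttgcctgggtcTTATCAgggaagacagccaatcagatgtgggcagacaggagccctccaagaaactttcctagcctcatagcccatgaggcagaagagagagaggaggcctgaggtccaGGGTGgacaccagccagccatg
Gata1, chrX:7967861-7968160, minus strand: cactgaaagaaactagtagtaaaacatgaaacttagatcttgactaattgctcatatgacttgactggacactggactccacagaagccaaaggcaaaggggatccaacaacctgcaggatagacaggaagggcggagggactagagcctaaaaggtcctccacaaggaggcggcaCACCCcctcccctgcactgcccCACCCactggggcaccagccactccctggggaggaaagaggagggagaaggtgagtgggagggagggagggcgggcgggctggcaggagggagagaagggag
Cited2, chr10:17722978-17723277, plus strand: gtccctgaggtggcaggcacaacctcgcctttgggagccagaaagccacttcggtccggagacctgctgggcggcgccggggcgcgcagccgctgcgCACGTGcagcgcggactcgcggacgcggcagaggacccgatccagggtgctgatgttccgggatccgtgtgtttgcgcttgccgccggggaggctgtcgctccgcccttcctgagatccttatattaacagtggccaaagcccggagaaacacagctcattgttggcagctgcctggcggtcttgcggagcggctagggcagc
The Klf1 window held 1 GATA motif, which begins 80 bases upstream of the start, and 2 CACCC boxes. The Gata1 window held 2 CACCC boxes, 74 and 52 bases upstream, and no GATA motif of these letters. Among the other members, a Tal1 window held 1 GATA motif and 1 CACCC box, although Tal1 was nearly level without DNase II. The Zfpm1 window held 3 CACCC boxes, and a Gata2 window and the Cited2 window 1 each. Of 32851 such windows in the mouse table, 18.6% held a GATA motif and 57.5% a CACCC box, so the CACCC letters are common in windows of this length. In the Cited2 window the hypoxia letters appear on both strands of a single site that begins 153 bases upstream, where they overlap an E-box (CANNTG). The hypoxia letters stood in 43.8% of all windows and in 4 of the 8 member windows, the others being both windows of Gata2 and that of Zfpm1. An E-box stood in 72.3% of all windows and in 5 of the 8 member windows. The NF-E2 motif (TGACTCA, both strands) stood in 5.2% of all windows and in none of the 8 member windows. These matches describe letters and were not tested as binding sites.

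The 3 arrays shared a typical level, with medians of 0.958 in wild-type, 0.959 in DNase II-deficient and 0.964 in double-deficient, so each value below is relative to that level. The Dnase2a probe read 40.4, 48.6 and 39.7 in that order, and the Ifnar1 probe 3.60, 4.66 and 3.17. Whether either probe falls inside a deleted part is unknown here, so they check nothing, and each direction below is that of the labels. The labelled tissue carried its markers: 15 of 15 erythroid and 10 of 10 hepatocyte markers lay above the array median in each of the 3 arrays. In the DNase II-deficient array 10 of 10 interferon-stimulated genes exceeded wild-type by at least 2-fold, where 7.67% of all genes compared did. Of these 10, 7 lay below the array median in wild-type, so they counted only through the DNase II-deficient array.

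The first question was how these genes read in fetal liver that lacks DNase II. Nfe2, Klf1 and Gata1 were at least 2-fold lower without DNase II, and Tal1 was nearly level. A gene was called where it differed by at least 2-fold and exceeded the median of either array. Of the 8, Gata2 did not meet that level in any array, and Zfpm1 and Cited2 met it only through the array in which each was higher. Of the 8 genes, 3 were at least 2-fold lower and 0 at least 2-fold higher, where 6.17% and 7.67% of all 8383 genes compared were so. Under each of the 4 other scalings 2 were lower, Nfe2 and Klf1. Of the 8 differences, 7 were below 0, but so were 65.7% of the differences of all genes compared. The median log2 difference of the 8 was -0.80, against -0.21 over all genes. In bulk liver, fewer cells of a type and less RNA per cell cannot be told apart.

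**Figure D1:**
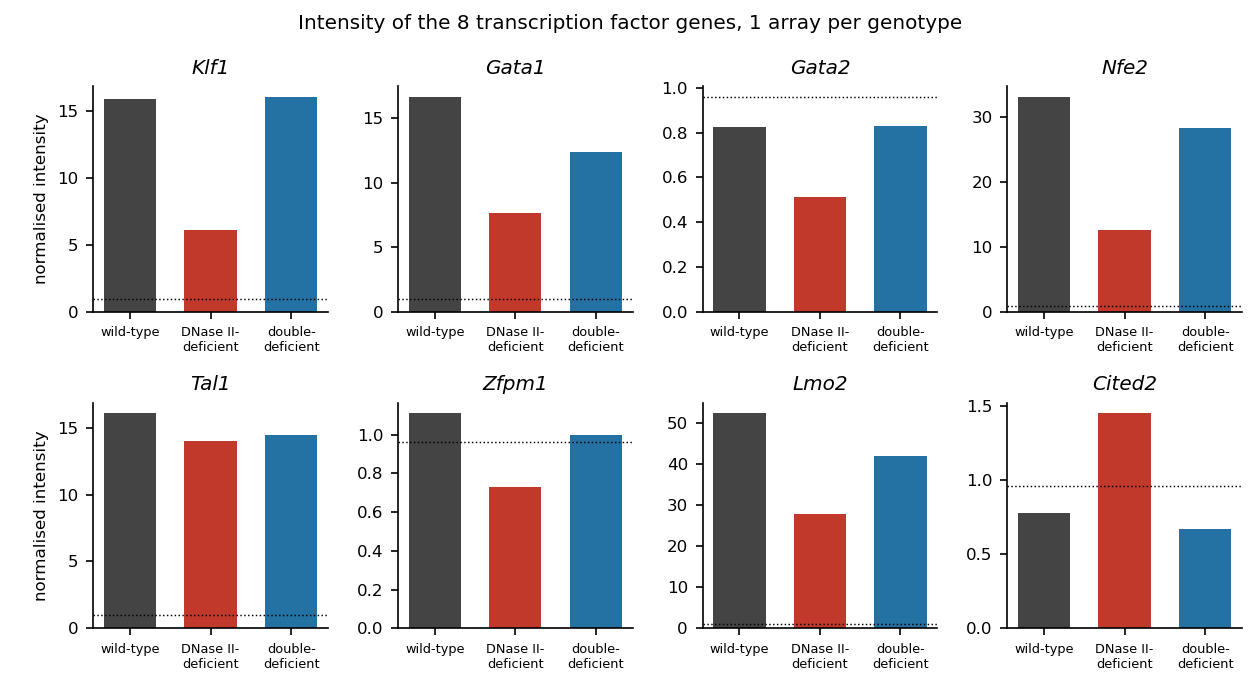
Normalised intensity (linear axis from 0) of each of the 8 genes in each array (grey, wild-type; red, DNase II-deficient; blue, double-deficient), with the mean of the 3 array medians dotted. Klf1, Gata1, Nfe2 and Lmo2 are lowest in the DNase II-deficient array, Tal1 is nearly level, and Cited2 is highest there.

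KLF1, the activator of adult beta globin and of much of the late red cell programme, was lowest in one array and level in the others. Klf1 read 15.9 in wild-type, 6.14 in DNase II-deficient and 16.1 in double-deficient. The DNase II-deficient array thus held 38.6% of the wild-type level, a log2 difference of -1.37, and the double-deficient array differed from wild-type by 0.01 on that scale. In the first of these differences, 191 of the 8383 genes compared were as low or lower. Between the mutant arrays Klf1 was 2.62-fold higher in double-deficient, and 81 of 8303 genes were as high or higher.

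Nfe2, which encodes the erythroid and megakaryocytic subunit of NF-E2, read 33.1 in wild-type, 12.5 in DNase II-deficient and 28.3 in double-deficient. It was 2.64-fold lower in DNase II-deficient than in wild-type (log2 -1.40), and 180 genes were as low or lower. That was the largest difference of the 8 as deposited, but with quantile values Klf1 was lower, at -1.23 against -1.17 for Nfe2. The double-deficient array was 2.26-fold above DNase II-deficient and held 85.6% of the wild-type level. The small Maf partners with which this subunit binds DNA differed less: Mafk read 3.67, 3.73 and 3.08 in the same order, and Mafg 4.42, 3.33 and 3.54. The other Maf gene on the list, Maff, was at the floor in all 3 arrays.

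The GATA factors were lower to unequal degrees. Gata1 read 16.7 in wild-type, 7.64 in DNase II-deficient and 12.4 in double-deficient. Its log2 difference without DNase II was -1.13, or 2.18-fold lower. That call depended on scaling: with quantile, 75th percentile, loess or centred values the difference was -0.96, -0.995, -0.85 and -0.92. In the double-deficient array Gata1 held 74.1% of the wild-type level, and 859 of 8158 genes were as low or lower. Gata2, the factor of earlier progenitors, was dim. It read 0.826, 0.513 and 0.830, below the median of each array, and so entered no count with the level filter. Its log2 difference of -0.69 without DNase II became 0.00 once values below the array median were set to that median.

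The cofactor and complex members differed less than Klf1, Nfe2 and Gata1. Zfpm1, encoding FOG1, read 1.11 in wild-type, 0.729 in DNase II-deficient and 0.998 in double-deficient. It lay near the array medians, passed the filter only through the array in which it was higher, and differed by -0.61 without DNase II. Lmo2, the bridging protein of the complex, read 52.5, 27.9 and 42.0, with a log2 difference of -0.91 in DNase II-deficient and -0.32 in double-deficient, both against wild-type. Tal1, its helix-loop-helix partner, read 16.1, 14.0 and 14.48. Its log2 difference of -0.20 equals the median of all genes to within 0.01, and its sign turned with quantile, loess and centred values (highest 0.09). Tal1 thus stood in the middle of all genes compared, with 4271 of 8383 genes as low or lower.

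Cited2 went the other way. It read 0.780 in wild-type, 1.45 in DNase II-deficient and 0.668 in double-deficient, above the array median in DNase II-deficient alone. It was 1.86-fold higher without DNase II (log2 0.90), short of 2-fold, and 2.18-fold lower in double-deficient than in DNase II-deficient, where 338 of 8303 genes were as low or lower. With values scaled to the 75th percentile, loess scaled or centred the first difference passed 2-fold, at 1.03, 1.03 and 1.10. When values were floored at the array median, or given a pseudocount of 0.5, it was 0.60 and 0.61.

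**Figure D2:**
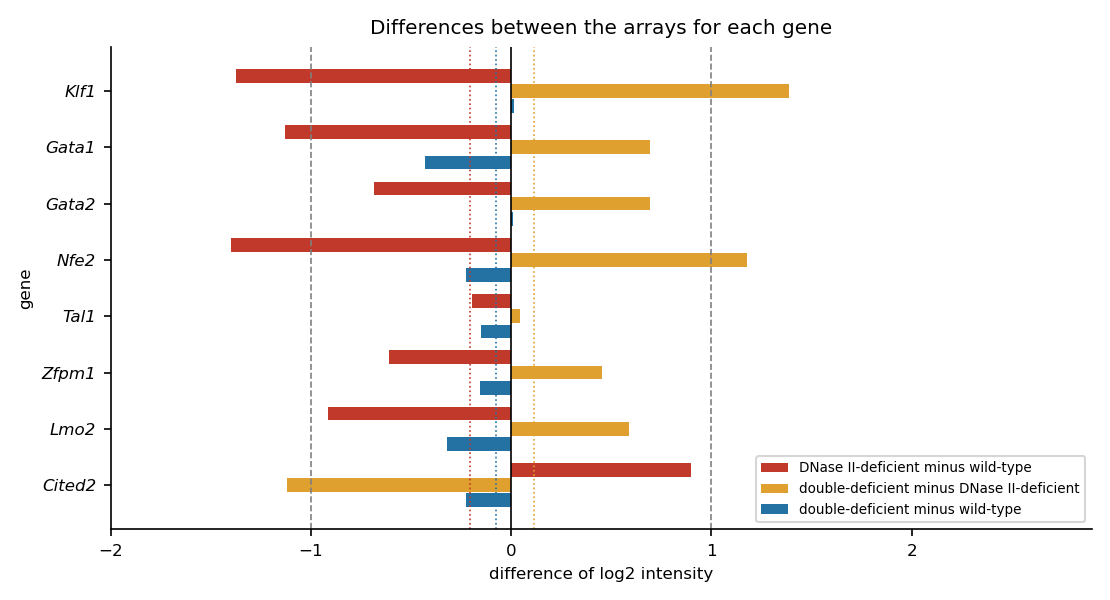
Difference of log2 intensity (horizontal axis) for each of the 8 genes in the 3 comparisons, with the median of all genes compared as dotted lines and 2-fold as dashed lines. Nfe2, Klf1 and Gata1 pass 2-fold on the lower side without DNase II, and no gene passes it between double-deficient and wild-type.

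The next comparison, between the mutant arrays, addresses the effect of removing the interferon receptor where DNase II is already missing. Klf1 and Nfe2 were at least 2-fold higher in double-deficient, 2 of the 8 genes where 3.11% of all genes were called, and Cited2 was the 1 gene at least 2-fold lower, where 4.85% were. Cited2 passed the level filter only through the DNase II-deficient array, and its difference was -0.59 with values floored at the array median and -0.74 with a pseudocount. With loess scaling Nfe2 was 0.98 higher on the log2 scale and lost its call. Gata1, Gata2, Lmo2 and Zfpm1 were higher by 0.70, 0.69, 0.59 and 0.45 on the log2 scale, and Tal1 by 0.05. Tal1 turned sign under all 4 other scalings (-0.03 to -0.14), and with values floored at the array median Gata2 and Zfpm1 differed by 0.01 and 0.06. The comparison of double-deficient with wild-type asks what remains different without DNase II once the receptor is also absent. None of the 8 genes was 2-fold different there, where 2.05% of genes were higher and 0.735% lower. The 8 differences ran from -0.43 for Gata1 to 0.01 for Klf1, with a median of -0.19 against -0.08 for all genes. The 3 comparisons share arrays and are not independent of each other.

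The differences also depend on how wide genes of like brightness scatter. Among the 500 genes nearest in mean level, the spread of the log2 difference between DNase II-deficient and wild-type (a scaled median absolute deviation, which describes these arrays and not replicates) was 0.42 for the level of Klf1 and 0.61 for that of Cited2. In units of that spread, and from the median of those neighbours, Klf1 lay at -2.63, Nfe2 at -2.57, Gata1 at -2.06, Lmo2 at -1.47, Gata2 at -0.97, Zfpm1 at -0.92, Tal1 at 0.18 and Cited2 at 1.57. Gata2, Zfpm1 and Tal1 therefore lay within 1 spread of genes of like level. Between double-deficient and wild-type the values ran from -1.31 for Gata1 to 0.40 for Klf1.

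Partner and co-regulator genes were called about as often as genes in general. Of 24 compared, 2 were at least 2-fold lower without DNase II, where 6.17% of all genes were, and 0 higher, with a median of -0.22. Over the 28 above the floor the median was -0.17, and -0.10 to 0.04 under the other scalings. E2f4, a cell cycle regulator that erythroid precursors need, read 31.7 in wild-type, 13.6 in DNase II-deficient and 30.2 in double-deficient. Zbtb7a, a repressor of fetal globin genes in humans, read 2.06, 0.968 and 1.78. Lyl1, the closest relative of TAL1, read 5.82, 3.47 and 5.26, while Tcf4, an E protein that can pair with it, read 4.22, 7.46 and 3.25. Ldb1, which links LMO2 complexes across DNA, read 5.07, 3.28 and 2.69, so it was lowest in the double-deficient array. Gfi1b, a repressor that works beside GATA1, read 10.7, 6.53 and 7.44. Among relatives in the KLF, GATA, LMO, TAL and CITED families, 2 of 18 genes compared were at least 2-fold higher without DNase II and 0 lower, where 7.67% of all genes were higher. The median was 0.08 over these 18. Over the 20 above the floor it was 0.12, and 0.22 to 0.33 under the other scalings. Klf6, an early response gene, read 1.64, 6.69 and 1.85, and Klf4, a factor of monocytes and endothelium, read 0.584, 1.53 and 1.18, below the array median in wild-type. Klf10 and Cited4 lay on the lower side, at -0.89 and -0.85.

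Genes known to depend on KLF1 and GATA1 were lower in the same array. Of 19 KLF1 target genes compared, 10 were at least 2-fold lower without DNase II and 0 higher, where 6.17% and 7.67% of all genes were. The median log2 difference was -1.06, and -0.72 to -0.93 under the other scalings. Slc25a37, whose product mitoferrin-1 brings iron into mitochondria, read 147.2 in wild-type, 33.9 in DNase II-deficient and 117.0 in double-deficient. Icam4, a red cell adhesion protein, read 10.9, 2.91 and 6.32, Epb42, a membrane skeleton protein, 32.5, 8.93 and 28.1, and Dmtn, which bundles actin there, 19.5, 6.35 and 15.2. Cdkn2c, the cell cycle inhibitor p18, read 4.46, 1.53 and 2.84. The kinase gene Pim1 was on the other side, at 1.35, 2.17 and 1.39. Hbb-bt, the adult beta globin gene on the array, differed by -0.21, the same as the median of all genes, but it is the brightest value of each array and the sources used here do not say whether it was saturated.

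Of 12 genes activated by GATA1, 5 were at least 2-fold lower and all 12 differences were below 0, where 6.17% and 65.7% of all genes were. The list median was -0.85, and -0.50 to -0.72 under the other scalings. Epor, the erythropoietin receptor gene, read 10.9, 4.68 and 6.80, Slc4a1, the anion exchanger band 3, 35.6, 14.7 and 27.5, and the heme enzyme genes Uros and Fech 21.5, 9.10 and 14.3 and 117.8, 56.4 and 98.3. In the double-deficient array the medians of both target lists were still below wild-type, at -0.33 for KLF1 targets and -0.36 for GATA1-activated genes, with 0 members at 2-fold. The lists share 3 genes, which is 15.8% of the KLF1 list and 23.1% of the GATA1 list on the array. Of the KLF1 targets, 8 are also erythroid markers, and so are 5 GATA1-activated genes (38.5% of that list), Epor and Slc4a1 among them.

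**Figure D3:**
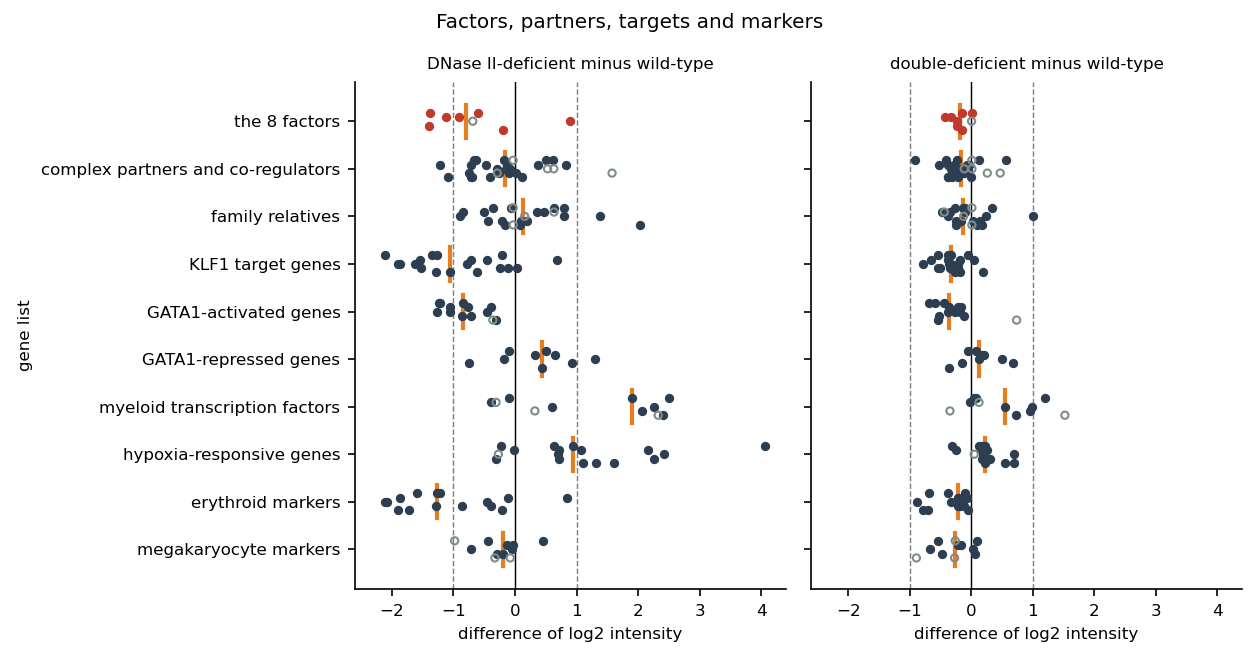
Difference of log2 intensity for the 8 factors (red), their partners, relatives, targets and marker genes (points; open where the gene was below the level filter between DNase II-deficient and wild-type), with list medians in orange, 2-fold dashed, DNase II-deficient minus wild-type on the left and double-deficient minus wild-type on the right. KLF1 targets and erythroid markers lie lowest on the left, at medians of -1.06 and -1.27. On the right their medians are -0.33 and -0.21, closer to wild-type but below it, against -0.08 for all genes.

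Of 9 genes that GATA1 represses, 1 was at least 2-fold higher, Cd34, and 0 lower, where 7.67% of all genes were higher. Their median was 0.44. Cd34, a progenitor surface protein that endothelium also carries, passed the level filter only in the mutant arrays and read 0.858 in wild-type, 2.10 in DNase II-deficient and 1.21 in double-deficient, Vim, encoding vimentin, 44.6, 84.9 and 71.3, and Myc 4.49, 7.02 and 5.09. Kit, the stem cell factor receptor gene, read 9.13, 13.0 and 8.85, and Lyl1 went against the list. Of the NF-E2 targets of platelet formation only 3 genes could be compared. Tbxas1, thromboxane synthase, differed by -0.76, although its other probe differed by -0.03. Rab27b differed by -0.44, and Casp12, below the array median in wild-type, was higher at 1.26.

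Markers of the cell types that use these factors differed to unequal degrees. Of 15 erythroid markers, 9 were at least 2-fold lower without DNase II and 0 higher, where 6.17% and 7.67% of all genes were. Those shares of all genes also stand beside the counts of the lists that follow. The erythroid median was -1.27, and Tfrc alone lay above 0, at 0.85. Their summed intensity was 2364 in wild-type, 1642 in DNase II-deficient and 2105 in double-deficient. Most of each sum came from Hbb-bt, at 1032, 895 and 993, and Hba-a1, at 632, 482 and 547. Of 8 megakaryocyte markers compared, 0 were 2-fold different, with a median of -0.16 against -0.21 for all genes compared. Over the 11 markers above the floor the median was -0.20, and -0.07 to 0.00 under the other scalings. The summed intensity of the megakaryocyte markers was 285.3, 216.4 and 212.6. The largest part of each sum was Ppbp, at 158.4, 96.1 and 99.9. Pf4 read 54.6, 53.4 and 47.2, and Treml1 31.4, 30.3 and 32.0. Mast cell, basophil and eosinophil markers, of lineages that use GATA1 and GATA2, had 1 of 5 at least 2-fold lower, Mcpt4, with sums of 18.3, 19.7 and 23.2. Granulocyte markers went the other way, with 9 of 9 at least 2-fold higher and sums of 283.9, 807.6 and 650.7. Stem and progenitor markers had sums of 13.7, 19.1 and 13.7, and Sox4 was at the floor in all 3 arrays. Of these, 1 of 3 compared was at least 2-fold higher, Cd34, which lay below the array median in wild-type. Macrophage markers summed to 222.9, 268.3 and 234.7, with 2 of 12 at least 2-fold higher, Lyz2 and Fcgr1, and 3 lower. Those 3 belong to resident macrophages: Cd5l read 30.6, 3.41 and 4.10, Marco 41.1, 3.98 and 13.5, and Clec4f 1.27 and 0.177 and, in double-deficient, a value at the floor. The list as a whole was not lower: of its 12 differences 6 were below 0 and 6 above. Vcam1 and Mertk, for instance, differed by 0.28 and -0.04. Endothelial markers summed to 42.5, 31.9 and 38.6, with 2 of 6 higher and 1 lower and Flt1 at the floor in all 3 arrays. The 2 higher, Pecam1 and Emcn, lay below the array median in wild-type, and the other Emcn probe differed by -0.03. The 1 lower, Stab2, read 23.0, 10.2 and 22.1. Hepatocyte markers summed to 3349, 3451 and 3055, with 1 of 10 lower. The part that these shifts in cell markers play in the readings of the 8 factors was not tested.

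The oxygen-responsive genes were set beside Cited2, which belongs to that response. Of 16 compared, 8 were at least 2-fold higher without DNase II and 0 lower, where 7.67% of all genes were higher (list median 0.94). Adm, Ddit4 and Egln1, 3 of these 8, lay below the array median in wild-type and were compared only because the DNase II-deficient array placed them above it. Adm, encoding the vasodilator adrenomedullin, read 0.438 in wild-type, 7.34 in DNase II-deficient and 0.497 in double-deficient. Vegfa read 3.96, 17.6 and 4.44, Bnip3 15.6, 74.7 and 19.1, and Ddit4 0.701, 3.73 and 1.14. These 4 genes and Cited2 were thus highest in the same array. Of the 16 differences without DNase II, 13 were above 0 and 3 below, those of Hif1a, Slc2a1 and Hif3a. Hif1a itself read 2.74, 2.70 and 3.26. Slc2a1 differed by -0.23 without DNase II and by -0.30 in double-deficient, both against wild-type. Hif3a differed by -0.31 at one probe and 0.20 at the other without DNase II.

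The genes with the most similar pattern were found by distance between log2 differences from wild-type in both mutant arrays, over 8028 genes outside the lists. With 3 arrays this is a description of only a pair of differences. Nearest to Klf1 were Kifc2, Patz1 and S100a14, at distances of 0.01, 0.04 and 0.05, and 12 genes lay within 0.1. Nearest to Gata1 were Slbp, Chaf1b and Siah1b (0.02, 0.02 and 0.03), with 39 genes within 0.1. Nearest to Nfe2 were Cyp2e1, Sh3tc2 and Car2 (each 0.03), with 19 genes within 0.1, and Car2, a carbonic anhydrase of red cells, read 338.1, 130.4 and 284.6. Nearest to Cited2 were Vcpip1, Apc and Aldoc (0.02, 0.03 and 0.05), with 10 genes within 0.1.

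**Figure D4:**
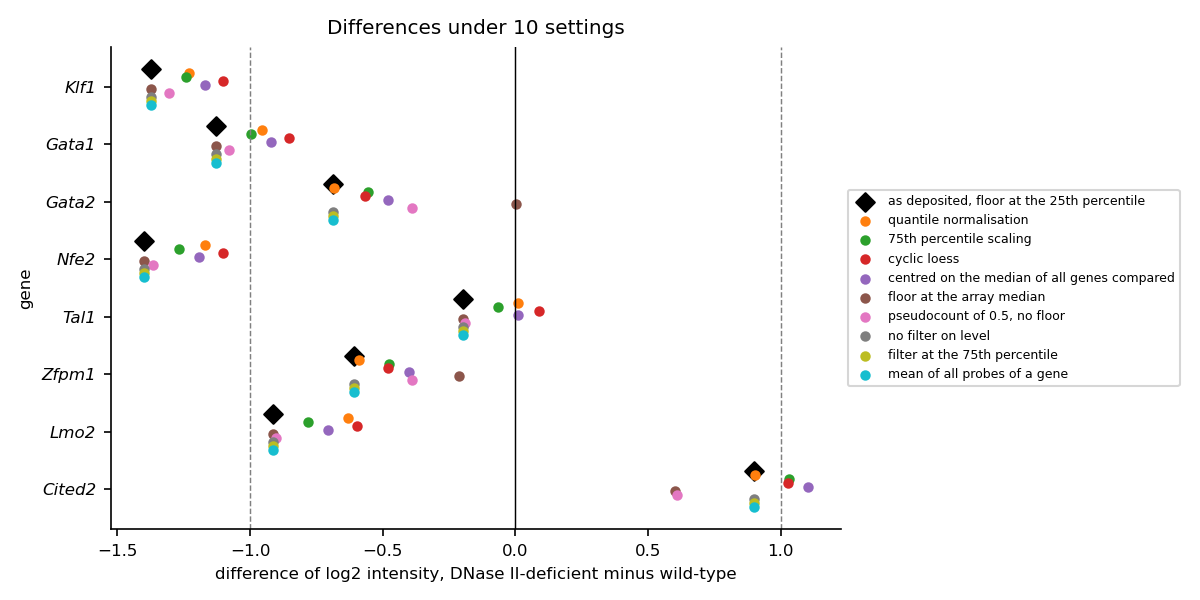
Difference of log2 intensity between DNase II-deficient and wild-type for each gene under the values as deposited (black diamonds) and 9 alternatives (coloured points), with 2-fold dashed. Klf1 and Nfe2 stay past 2-fold under all of these settings, Gata1 under 5 of the 9 alternatives, and Cited2 passes it under 3. The level filters and the mean of all probes could not move these values, and the floor could not move Gata1, which exceeds each array median. Of the settings that keep Gata1 past 2-fold, only the pseudocount changed its value, to -1.08. Every other scaling took Gata1 short of 2-fold, at -0.85 to -0.995.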

How the data were processed

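Poly(A)-selected RNA was copied into cDNA, transcribed with a biotinylated nucleotide, hybridised and stained with Cy5-streptavidin, and, per the labels' protocols, scanned and quantified in CodeLink System Software. The labels give neither its version nor its background and filter settings. The authors deposited 1 linear normalised intensity per probe and array. Probes missing a value anywhere (125 of 20289) were not used here. The platform annotation, which can be old, gave 1 symbol for 15120 probes, several for 38 and none for 5131. Entrez identifiers of 15064 matched the reference table (GRCm38.p6) and 0 symbols changed.

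Values under an array's 25th percentile were raised to it before taking log2. A gene with several probes was represented by the brightest on average. Genes that exceeded the median of either array were compared and called at 2-fold, with no test. List medians leave out genes at the floor in all 3 arrays but, unless stated, keep genes under the level filter, so some cover more genes than were compared. Hbb-b1 was looked up as Hbb-bt. Steps were tested on simulated data and run with Python 3.11.15, pandas 2.3.3 and limma 3.58.1 (cyclic loess). The planted differences were all well past 2-fold and lay in probes above the wild-type median. Calls near 2-fold and genes below the median were therefore not checked by it. Named genes were all 8 members, per list the 4 largest differences without DNase II and the largest against the list, and 3 nearest patterns per called member. Ldb1, Mafk, Mafg, Gfi1b, Cdkn2c, Kit, Hbb-bt, Hif1a, Slc2a1, Egln1, Gfi1, Spi1 and the markers were chosen for mention once their values had been seen. The members and lists were chosen with earlier results of these data known. The alternatives were 4 scalings, another floor, a pseudocount, other level filters and the mean of all probes.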

Additional observations from a re-analysis of the deposited data

How the results depend on the processing

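Under 9 alternatives, 213 of 216 values of the 8 genes moved by less than the spread among genes of like level, and no called difference changed sign. Part of that count was fixed in advance. The other level filters and the mean of all probes could not move these values, because each of the 8 genes had 1 probe. The cause of the changes below was not tested, except that stricter filters compare fewer genes and centring subtracts the median. The count of the 8 genes at least 2-fold higher without DNase II was 0, and 1 with 75th percentile scaling, with cyclic loess and with centring. Between the mutants the count higher in double-deficient was 2, and 1 with loess, and the count lower was 1, and 0 with values floored at the array median, with a pseudocount and with the filter at the 75th percentile. Over all genes, those at least 2-fold lower without DNase II numbered 517 as deposited, 287 with loess, 298 with centring and 321 with the stricter filter, which left 310 higher in place of 643. Higher genes made up 55.4% of these calls as deposited, 67.1% with 75th percentile scaling, 74.2% with loess and 73.6% with centring. Between the mutants 258 were higher as deposited, against 162 with loess, 171 with a pseudocount and 158 with the stricter filter, which left 192 lower in place of 403. In double-deficient minus wild-type 60 were lower and 167 higher as deposited, against 27 lower with a pseudocount, 97 and 259 without a filter and 25 and 67 with the stricter one. Readings near the array median (Gata2, Zfpm1 and Cited2) are limited by signal over background. No paired analysis was possible because each genotype has 1 array.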

Other observations

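Of 8 transcription factors of the myeloid lineages compared, 5 were at least 2-fold higher in DNase II-deficient than in wild-type and 0 lower, where 7.67% of all genes were higher. Irf8 and Gfi1, 2 of these 5, lay below the array median in wild-type and were compared only because the DNase II-deficient array placed them above it. The median log2 difference was 1.98 over the 8 compared. Over the 11 above the floor it was 1.90, which was 0.11 with the floor at the array median and 0.98 with a pseudocount of 0.5. Bhlhe40, a helix-loop-helix repressor that stress and cytokines induce, read 1.54 in wild-type, 8.70 in DNase II-deficient and 1.58 in double-deficient. Irf8, which directs monocyte formation, read 0.431, 2.29 and 0.718. The CCAAT-binding factor genes Cebpb and Cebpd read 1.87, 8.92 and 3.71, and 2.30, 9.57 and 4.45, so both stayed above wild-type in the double-deficient array. Spi1, encoding PU.1, the myeloid factor that opposes GATA1, was nearly level at 3.04, 2.86 and 3.22, and Maf differed by -0.40 without DNase II at its brightest probe and by -0.08 and -0.03 at the others.

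Of the stem and progenitor transcription factors, only 3 of 9 on the array could be compared and 0 were 2-fold different. The median log2 difference was -0.57 over these 3. Over the 7 genes above the floor, as for the other list medians, it was 0.02, and 0.03 to 0.22 under the other scalings. Meis1 read 7.83, 5.28 and 4.72 and Mecom 4.10, 2.60 and 2.66, both lower in each mutant array than in wild-type, while Hhex read 1.68, 2.28 and 1.31. Hoxa9 and Hoxb4 were at the floor in all 3 arrays. Housekeeping genes had a median of -0.09, which was 0.04 to 0.26 under the other scalings, with 2 of 10 at least 2-fold higher, B2m and Pgk1, which interferon and low oxygen are known to induce.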
